A study of Mus musculus with 9 samples.

Results

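The 9 genes described here encode the rod phototransduction cascade from transducin to the channel, together with rod arrestin. They are the 3 transducin subunits (*Gnat1*, *Gnb1* and *Gngt1*), the 3 subunits of the rod phosphodiesterase PDE6 (*Pde6a*, *Pde6b* and *Pde6g*), both subunits of the rod cyclic nucleotide-gated channel (*Cnga1* and *Cngb1*) and arrestin (*Sag*). They were chosen by gene symbol, with no limit on a measured value but with earlier results of these data known. The choice was out of 25239 gene names listed in all 9 libraries. All 9 were listed in each library and all 9 passed the filter on low values, a mean of at least 1 TPM (a transcript's share of the library after division by its length, scaled to the same total in each library).

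In a rod, light-activated visual pigment makes the transducin alpha subunit exchange GDP for GTP and part from its beta and gamma subunits. The alpha subunit then relieves PDE6 of the hold of its inhibitory gamma subunits, cyclic GMP falls, and the cation channel in the outer segment membrane closes. Arrestin binds the phosphorylated pigment and ends its activity. Rods are the most numerous neurons of the mouse retina, and the proteins of this cascade fill their outer segments.

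The study asked whether a knock-in at *Rbpms*, a gene of retinal ganglion cells, alters the retina. A P2A-CreERT2 cassette was placed in frame at the end of the coding sequence of *Rbpms* with CRISPR/Cas9 in C57BL/6J zygotes, so that the *Rbpms* locus drives a Cre recombinase that tamoxifen activates. Whole retinas were taken at P42 from wild type (+/+), heterozygous Rbpms-CreERT2/+ (Cre/+) and homozygous Rbpms-CreERT2/CreERT2 (Cre/Cre) mice, with 3 libraries per genotype and a pair of retinas in each library. The labels of these samples name no tamoxifen treatment and no other allele. Each library holds all cell types of the retina, so fewer rods and less RNA per rod cannot be told apart in any value below.

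The libraries held 4.05 to 4.65 aligned gigabases, or 27.0 to 31.0 × 10⁶ reads with a length of 150 bases. *Rbpms* itself, which carries the knock-in, had a mean of 41.7 ± 2.85 TPM (SD, n = 3) in +/+. It was 32.2 ± 0.888 TPM with 1 and 21.0 ± 2.80 TPM with both alleles changed, without overlap between genotypes. Its log2 fold change in Cre/Cre against +/+ was -0.96 ± 0.0979 (SE; adjusted p = 0.000581, limma), short of 2-fold. *Rbpms* was the 1 gene past the adjusted p there. The paper, with a 2-fold limit, reports no significant difference in *Rbpms* RNA and similar RBPMS staining. The cause of the lower TPM was not tested. The Cre/Cre replicate 1 library stood apart, since the ribosomal RNA precursor Rn45s took 9.21% of its TPM against 0.0827% to 0.336% in the other 8 libraries, and the median-ratio factor of its genes was 0.917 against 0.985 to 1.03. *Xist* was at 2.08 to 3.16 TPM in Cre/+ replicate 3, Cre/Cre replicate 1 and Cre/Cre replicate 3 and at 516 to 585 TPM in the other 6, so the sexes were not balanced over the genotypes. The 6 rod markers *Nrl*, *Nr2e3*, *Prph2*, *Rom1*, *Rp1* and *Esrrb* summed to 13334 to 13869 TPM in +/+, 13230.1 to 13671 TPM in Cre/+ and 11999 to 13652 TPM in Cre/Cre, and none of them was at 0 in any library. In the order +/+, Cre/+ and Cre/Cre, the summed levels were 1257 to 1296, 1201 to 1233 and 933 to 1121 TPM for 6 ganglion cell markers, 122.9 to 175, 10.3 to 136 and 63.7 to 900.0 TPM for 5 lens markers, of which 1 was at 0 in some library, and 151 to 182, 92.5 to 105 and 185 to 300.5 TPM for 5 blood markers, of which 3 were at 0 in some library. The other marker sums of both knock-in genotypes overlapped those of +/+, while the bipolar and horizontal sums of Cre/Cre lay below those of Cre/+, with 2574 to 2863 TPM over the 9 libraries for 7 cone, 1209 to 1603 TPM for 6 bipolar, 747 to 855 TPM for 5 amacrine, 89.6 to 118 TPM for 4 horizontal, 4387 to 5381 TPM for 5 Mueller glia and 16.0 to 85.8 TPM for 4 pigment epithelium markers. Their part in the values of the rod genes was not tested.

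Transcripts of the cascade were among the most abundant of the retina. The sum of the 9 genes as a share of all TPM was 3.80% ± 0.0206 (SD, n = 3) for +/+ retinas, 3.89% ± 0.0645 for Cre/+ and 3.58% ± 0.311 for Cre/Cre. By mean TPM over the 9 libraries, *Gnat1* ranked 2 among all 25239 gene names, *Sag* 4, *Gnb1* 5, *Pde6g* 8, *Gngt1* 15, *Pde6a* 20, *Pde6b* 23, *Cnga1* 75 and *Cngb1* 102. Neighbours in this order kept their places in 9 of 9 libraries, except that *Pde6a* exceeded *Pde6b* in 7 of 9 and *Cnga1* exceeded *Cngb1* in 8 of 9. The ranges of neighbours over the 9 libraries were separate at 3 steps, namely from *Gnat1* to *Sag* (2.35-fold between the means), from *Pde6g* to *Gngt1* (1.40-fold) and from *Pde6b* to *Cnga1* (2.35-fold), and overlapped at the other steps. The transducin alpha subunit, the signal carrier, thus stood highest on the TPM scale and the channel subunits lowest.

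**Figure D1:**
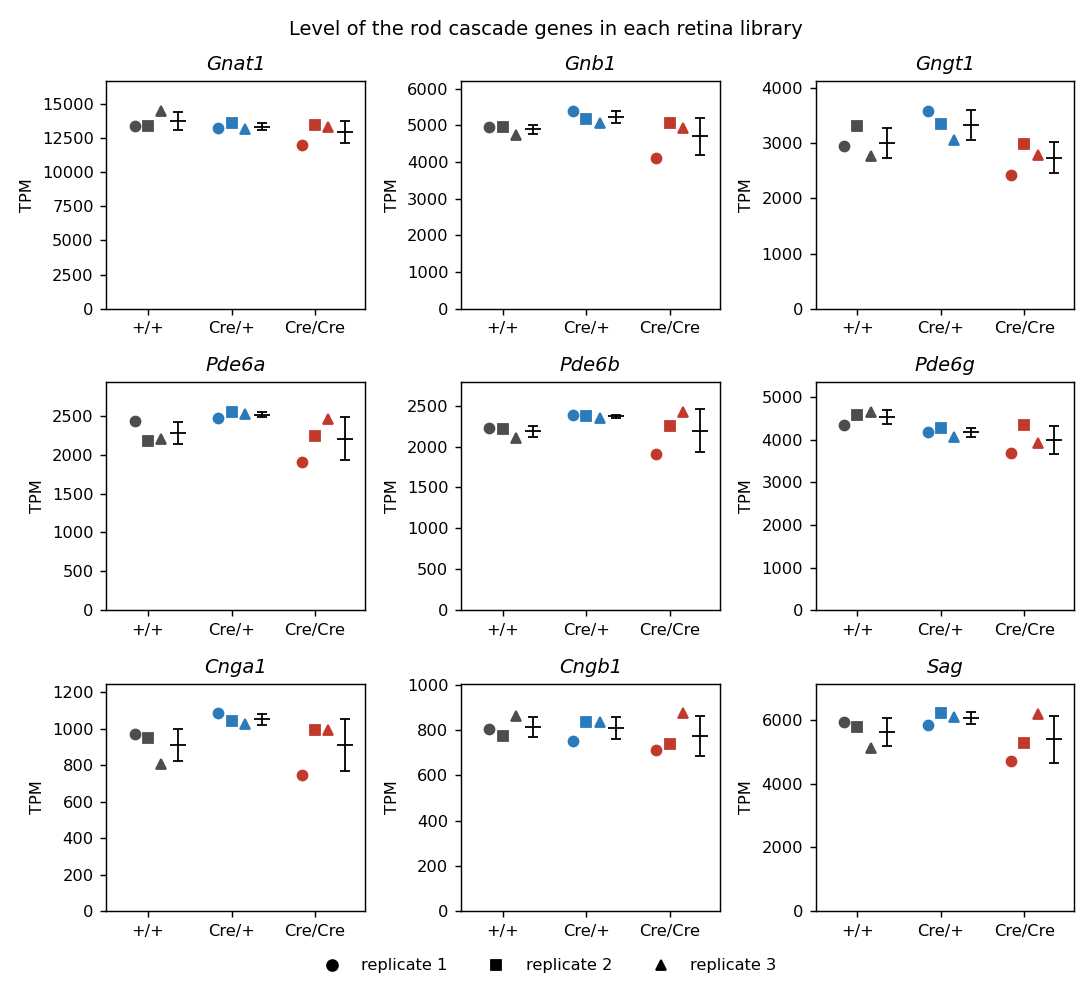
Level of the 9 rod cascade genes in TPM (vertical axis, linear from 0) for each library, grouped by genotype on the horizontal axis, with the replicate number as symbol and the mean ± SD of 3 libraries beside the points. Cre/Cre replicate 1 is the lowest of the 9 libraries in all 9 panels, and the Cre/+ points lie above all +/+ points for *Gnb1*, *Pde6a*, *Pde6b* and *Cnga1* and below them for *Pde6g*.

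Promoters are shown because the genes are expressed together in rods, where the transcription factors CRX and NRL act. RefSeq sequences of the promoters on GRCm38.p6, the assembly of mm10, matched 6 of the 9 genes (*Gnb1*, *Gngt1*, *Pde6b*, *Cnga1*, *Cngb1* and *Sag*), each with the start that the gene tables give. In the 250 bases before the start, searched on both strands, the CRX core TAATCC stood in 4 of the 6 and in 6.25% of 32851 promoters of the same length, and the NRL core TGCTGA in 2 of the 6 and in 16.1%. A match describes letters and not a bound site. The 5 sequences with a match are given below, 5′ to 3′ on the strand of the gene, with the matches in capitals (GGATTA is the CRX core read on the opposite strand).
Gngt1, chr6:3993758-3994007, plus strand: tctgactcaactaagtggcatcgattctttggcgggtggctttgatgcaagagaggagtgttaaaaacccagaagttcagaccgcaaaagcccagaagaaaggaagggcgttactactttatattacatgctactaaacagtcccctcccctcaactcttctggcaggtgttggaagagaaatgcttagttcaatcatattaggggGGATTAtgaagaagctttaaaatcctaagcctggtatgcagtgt
Pde6b, chr5:108388123-108388372, plus strand: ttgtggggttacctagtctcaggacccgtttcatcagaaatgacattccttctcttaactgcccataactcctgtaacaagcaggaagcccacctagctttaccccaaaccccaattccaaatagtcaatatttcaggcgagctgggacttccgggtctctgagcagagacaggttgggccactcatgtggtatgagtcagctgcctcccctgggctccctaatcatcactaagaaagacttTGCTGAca
Cnga1, chr5:72642753-72643002, minus strand: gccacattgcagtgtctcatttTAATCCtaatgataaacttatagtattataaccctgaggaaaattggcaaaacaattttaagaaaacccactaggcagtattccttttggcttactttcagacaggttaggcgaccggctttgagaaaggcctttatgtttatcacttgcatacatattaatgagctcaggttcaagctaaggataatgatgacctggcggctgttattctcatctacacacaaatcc
Cngb1, chr8:95306586-95306835, minus strand: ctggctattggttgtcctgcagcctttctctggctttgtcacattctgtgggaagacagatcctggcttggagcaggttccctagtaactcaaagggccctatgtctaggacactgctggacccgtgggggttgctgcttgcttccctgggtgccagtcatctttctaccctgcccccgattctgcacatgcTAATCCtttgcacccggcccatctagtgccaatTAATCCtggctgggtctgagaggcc
Sag, chr1:87803430-87803679, plus strand: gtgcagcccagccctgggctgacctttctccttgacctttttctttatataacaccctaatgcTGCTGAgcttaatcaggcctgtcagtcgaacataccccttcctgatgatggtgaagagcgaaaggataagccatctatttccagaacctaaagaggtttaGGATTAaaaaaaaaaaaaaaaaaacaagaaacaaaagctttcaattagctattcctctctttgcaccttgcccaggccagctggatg

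Counted back from the start of the gene, the CRX core lay at -44 to -39 in *Gngt1*, at -228 to -223 in *Cnga1*, at -58 to -53 and again at -25 to -20 in *Cngb1*, and at -87 to -82 in *Sag*. The NRL core lay at -8 to -3 in *Pde6b* and at -187 to -182 in *Sag*, the promoter that held both. The *Gnb1* promoter held neither and was 69.2% G or C, against a median of 52.4% over all promoters. *Gnb1* also differs from the others in that its beta subunit serves G proteins in many cell types, whereas the other 8 genes are best known from rods.

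*Gnat1* (chr9:107674437-107679634 of mm10, minus strand) encodes the rod transducin alpha subunit. Its TPM were 13355, 13379.7 and 14487 in +/+, 13252, 13604 and 13137 in Cre/+, and 12009, 13429.8 and 13314 in Cre/Cre. The genotypes overlapped, with the top value in +/+ replicate 3 and the bottom value in Cre/Cre replicate 1. The log2 fold change, here and below on the log2(TPM + 1) scale, was -0.04 ± 0.0657 (SE) in Cre/+ against +/+ (adjusted p = 0.837, limma) and -0.09 ± 0.0657 in Cre/Cre against +/+ (adjusted p = 0.858, limma). *Gnat1* had the smallest residual SD of the 9 genes, 0.0664 on the log2 scale.

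*Gnb1* (chr4:155491361-155559269, plus strand), the transducin beta subunit, had TPM of 4960.0, 4963 and 4743 in +/+, 5397, 5183 and 5071 in Cre/+, and 4120.3, 5055 and 4919.8 in Cre/Cre. All Cre/+ values were above all values of the other genotypes, and the Cre/+ mean was 106.7% of the +/+ mean. *Gngt1* (chr6:3994008-3997436, plus strand), the rod transducin gamma subunit, had TPM of 2939, 3306 and 2762 in +/+, 3584, 3343 and 3046 in Cre/+, and 2426, 2978 and 2789 in Cre/Cre. Every Cre/Cre value of *Gngt1* was below every Cre/+ value, while +/+ overlapped both. Between Cre/Cre and Cre/+ the log2 fold change of *Gngt1* was -0.29 ± 0.0901 (95% confidence interval -0.48 to -0.09), the largest in size of the 9 genes over the 3 comparisons, with an adjusted p of 0.653 in limma. That of *Gnb1* was -0.16 ± 0.0767 with an adjusted p of 0.740, so neither passed the limit.

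The catalytic PDE6 subunits *Pde6a* (on chromosome 18) and *Pde6b* (chr5:108388373-108431742, plus strand), which hydrolyse cyclic GMP as a pair, stood at nearly equal levels. *Pde6a* was at 2441, 2182 and 2206 TPM in +/+, 2478, 2552 and 2525 TPM in Cre/+, and 1913, 2241 and 2468 TPM in Cre/Cre. *Pde6b* was at 2230.0, 2219 and 2108 TPM in +/+, 2384, 2379 and 2348 TPM in Cre/+, and 1903, 2253 and 2423 TPM in Cre/Cre. For both genes the 3 Cre/+ values lay close together above all +/+ values, with an SD of 1.47% of the mean for *Pde6a* and 0.829% for *Pde6b*, while Cre/Cre spread over 12.6% and 12.1%. The log2 fold changes in Cre/+ against +/+ were 0.15 ± 0.0850 for *Pde6a* (adjusted p = 0.525, limma) and 0.12 ± 0.0807 for *Pde6b* (adjusted p = 0.592, limma). In Cre/Cre against +/+ they were -0.05 and -0.00. Against Cre/+, *Pde6a* in Cre/Cre was lower without overlap by a log2 fold change of -0.20 ± 0.0850, with an adjusted p of 0.740 in limma, and by -0.10 without Cre/Cre replicate 1.

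*Pde6g* (chr11:120447607-120453500, minus strand), the inhibitory subunit that keeps PDE6 silent in the dark, lay below +/+ in Cre/+, where the catalytic subunits lay above. Its TPM were 4359, 4594 and 4658 in +/+, 4193, 4278 and 4073 in Cre/+, and 3704, 4358 and 3939 in Cre/Cre. Both knock-in genotypes lay below +/+ without overlap, although only 0.614 TPM separated the lowest +/+ library from the highest Cre/Cre library. The means were 92.2% and 88.2% of the +/+ mean. In Cre/Cre against +/+ the log2 fold change was -0.18 ± 0.0706 (95% confidence interval -0.33 to -0.03) and an adjusted p of 0.655 in limma. It was the smallest p of the 9 genes in this comparison and did not pass the limit after adjustment over 15198 genes.

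*Cnga1* (chr5:72603697-72642752, minus strand) encodes the channel subunit that forms the cyclic GMP-gated pore. It was at 974, 948 and 809 TPM in +/+, 1086, 1045 and 1025 TPM in Cre/+, and 745, 995 and 993 TPM in Cre/Cre. All Cre/+ values were above all others, and the Cre/+ mean was 115.6% of the +/+ mean, the largest percentage among the 9 genes. The log2 fold change was 0.21 ± 0.106 in Cre/+ against +/+ (95% confidence interval -0.01 to 0.44) with an adjusted p of 0.480 in limma, and -0.22 ± 0.106 in Cre/Cre against Cre/+ with an adjusted p of 0.740. The former was 0.13 without +/+ replicate 3 and the latter -0.08 without Cre/Cre replicate 1. *Cnga1* also had the largest residual SD of the 9 genes, 0.163 on the log2 scale.

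*Cngb1* (chr8:95239043-95306585, minus strand), which encodes the modulatory channel subunit, had TPM of 807, 774 and 861 in +/+, 754, 836 and 838 in Cre/+, and 712, 739.8 and 875 in Cre/Cre. The genotypes overlapped and the log2 fold changes against +/+ were -0.01 ± 0.0846 in Cre/+ and -0.07 ± 0.0846 in Cre/Cre, with adjusted p of 0.981 and 0.927 in limma. The *Cngb1* locus also makes short GARP proteins, glutamic acid-rich proteins of rod discs, and the annotation lists 10 transcripts, of which 6 are coding, with 536 to 6189 bases. The coverage of *Cngb1* divided by its FPKM was 0.443 to 0.481 of the value common to most genes of the library, against 0.991 to 1.00 for the other 8 genes. The TPM of *Cngb1* are therefore a sum over transcripts of different length and not the level of the full channel subunit, which also limits its rank below *Cnga1*.

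*Sag* (chr1:87803680-87845157, plus strand), rod arrestin, which shuts off the pigment, had TPM of 5929, 5789 and 5109 in +/+, 5851, 6205 and 6089 in Cre/+, and 4716, 5285 and 6174 in Cre/Cre. The genotypes overlapped, and the Cre/Cre libraries spread the most, with an SD of 13.6% of their mean. The log2 fold changes were 0.11 ± 0.0890 in Cre/+ and -0.06 ± 0.0890 in Cre/Cre against +/+, with adjusted p of 0.651 and 0.951 in limma. The former was 0.05 without +/+ replicate 3, and the latter 0.03 without Cre/Cre replicate 1.

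In Cre/+ retinas the mean TPM of the 9 genes were 92.2% (*Pde6g*) to 115.6% (*Cnga1*) of the wild type mean. In Cre/+ against +/+, 6 of the 9 log2 fold changes were above 0, with a median of 0.11 against 0.00 over all 15198 genes tested, of which 50.4% were above 0. For 5 of the 9 genes the genotypes did not overlap, 4 of them higher (*Gnb1*, *Pde6a*, *Pde6b* and *Cnga1*) and 1 lower (*Pde6g*), whereas 22.2% of all genes did not overlap, 11.9% higher and 10.3% lower. None of the 9 passed an adjusted p of 0.05 in limma, a limit that 0.00658% of all genes passed, and none was under an unadjusted p of 0.05, where 10.7% of all genes were. Without Cre/Cre replicate 1, a library that enters this comparison only through the shared estimate of the spread, 5 of the 9 and 16.4% of all genes were under an unadjusted p of 0.05, with a smallest adjusted p of 0.182 among the 9. The count was 1 of 9 without +/+ replicate 1 (12.7% of all genes) and without +/+ replicate 2 (7.7%). It was 3 of 9 with median-ratio scaling (15.9% of all genes), where *Gnb1* overlapped and 4 of the 9 did not, 4 of 9 with Rn45s left out (15.3%), 2 of 9 with *Xist* as covariate (9.99%) and 5 of 9 with only the libraries of both genotypes (16.9%). The 95% confidence intervals of all 9 lay between -0.27 and 0.44 on the log2 scale, so a 2-fold change in either direction lay outside each of them.

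In Cre/Cre retinas the mean TPM were 88.2% (*Pde6g*) to 100.3% (*Pde6b*) of the wild type mean, and *Pde6g* was the one gene whose genotypes did not overlap. All 9 log2 fold changes were below 0, from -0.18 for *Pde6g* to -0.00 for *Pde6b*, with a median of -0.06 against -0.02 over all genes, of which 42.3% were above 0. This 1 gene without overlap compares with 10.8% of all genes in either direction and 8.05% lower (2.7% were higher). None of the 9 passed the adjusted p in limma, against 0.00658% of all genes, and 1 of 9 was under an unadjusted p of 0.05, against 6.97%. That count was 0 without +/+ replicate 2 (4.97% of all genes) or +/+ replicate 3 (5.12%) and 2 without Cre/Cre replicate 2 (8.53%). The common direction rested on Cre/Cre replicate 1, which held the lowest TPM of all 9 genes. Without it the median was 0.03 and 5 of the 9 were above 0. Then 2 genes (*Pde6b* and *Cnga1*) lay higher and 1 (*Pde6g*) lower without overlap. Of all genes 15.9% lay higher and 9.81% lower, and a gene already apart, such as *Pde6g*, cannot gain an overlap in this way. With Rn45s left out and the rest rescaled to an equal total, 2 of 9 were above 0 and the median was -0.02. The intervals of all 9 lay between -0.33 and 0.22.

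The comparison of Cre/Cre with Cre/+ shares its Cre/+ libraries with the first comparison and its Cre/Cre libraries with the second. All 9 log2 fold changes were below 0, with a median of -0.16 against -0.03 over all genes. Of all genes 40.8% were above 0, and the 9 genes share the scaling of each library. The genotypes did not overlap for 4 of the 9 (*Gnb1*, *Gngt1*, *Pde6a* and *Cnga1*), all lower, whereas 12% of all genes did not overlap and 7.23% were lower and 4.76% higher without overlap. Leaving out Cre/Cre replicate 1 cannot bring these 4 genes to overlap, so their separation without it adds nothing. Without that library 8.5% of all genes were lower and 13.4% higher without overlap. After median-ratio scaling the same 4 genes were lower without overlap, where 7.92% of all genes were lower and 7.21% higher. None of the 9 passed the adjusted p in limma, against 0.0132% of all genes, and 2 of 9 (*Gngt1* and *Pde6a*) were under an unadjusted p of 0.05, against 6.58%. Without Cre/Cre replicate 1 the median was -0.06 and 1 of 9 was under that p (4.97% of all genes), and the log2 fold changes of these 4 genes were -0.06 for *Gnb1*, -0.20 for *Gngt1*, -0.10 for *Pde6a* and -0.08 for *Cnga1*. Without Cre/Cre replicate 3 the median was -0.19 and 6 of 9 were under that p (12.5% of all genes). Leaving out any 1 Cre/+ library gave 1 of 9 (4.26% to 6.82% of all genes), leaving out +/+ replicate 3 gave 3 (6.28%), and leaving out Cre/Cre replicate 2 gave 4 (8.4%).

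**Figure D2:**
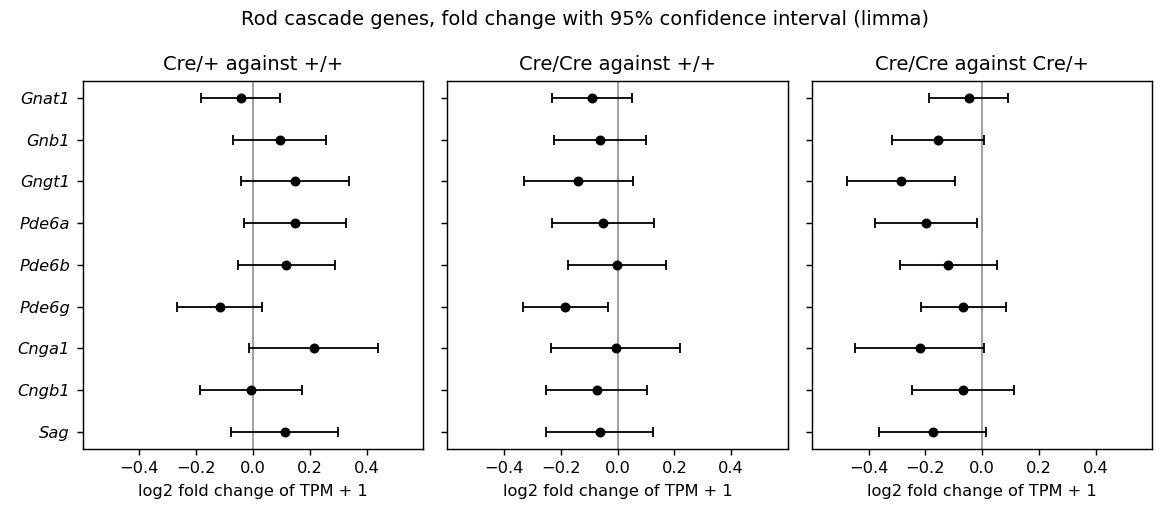
Log2 fold change of TPM + 1 (horizontal axis) of the 9 rod cascade genes (vertical axis) in the 3 comparisons, with points for the limma estimate and bars for its 95% confidence interval. All intervals against +/+ include 0 except that of *Pde6g* in Cre/Cre, and in Cre/Cre against Cre/+ those of *Gngt1* and *Pde6a* lie below 0, in each case before adjustment over all genes.

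With TPM, the level common to the 9 genes differed more between the Cre/Cre libraries than between genotypes. As the mean over the 9 genes of the log2 deviation from the 9-library mean, it was 0.02, 0.02 and -0.04 in +/+, 0.08, 0.09 and 0.05 in Cre/+, and -0.24, -0.01 and 0.03 in Cre/Cre. The Cre/+ libraries were the 3 highest, and Cre/Cre replicate 1 was far below all others. After median-ratio scaling the values were 0.00, 0.04 and -0.07 in +/+, 0.07, 0.09 and 0.02 in Cre/+, and -0.12, -0.04 and -0.01 in Cre/Cre. On this scale Cre/+ overlapped +/+, and Cre/Cre replicate 1 held the lowest value of 3 of the 9 genes (*Gnb1*, *Gngt1* and *Pde6a*) in place of 9 of 9.

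**Figure D3:**
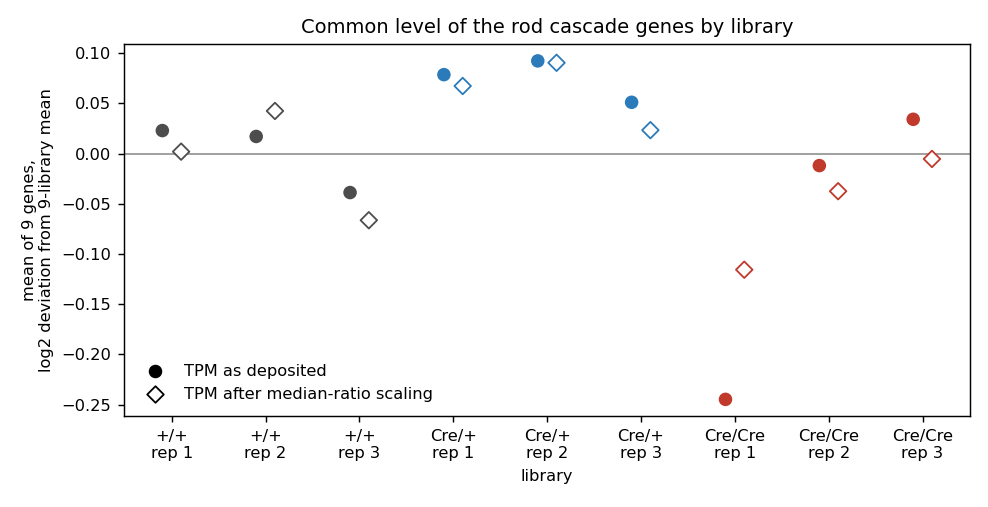
Mean over the 9 rod cascade genes of the log2 deviation from each gene's 9-library mean (vertical axis) for each library (horizontal axis), as deposited TPM (filled circles) and after median-ratio scaling (open diamonds). Cre/Cre replicate 1 lies at -0.24 on the TPM scale and at -0.12 after scaling, and the 3 Cre/+ libraries are the highest on the TPM scale.

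How far the 9 genes moved together depended on the scale. Over the 9 libraries, which share their scaling, Pearson's r of log2 levels was above 0 for 36 of the 36 pairs of genes with TPM (median 0.599) and for 23 of the 36 after median-ratio scaling (median 0.294). With TPM, r was highest for *Pde6b* with *Cnga1*, at 0.939, and lowest for *Gngt1* with *Cngb1*, at 0.0660. After scaling, r was highest for *Gnb1* with *Gngt1*, the subunits of 1 dimer, at 0.934, and lowest for *Gnat1* with *Cnga1*, at -0.459. These are the extremes of 36 pairs and were not tested against pairs of other genes. The genes outside the cascade whose level was most like the mean of the 9, among 10858 genes with a mean of at least 10 TPM, were *Khdrbs1* (an RNA-binding protein, r = 0.983), *Naca* (a subunit of the nascent polypeptide-associated complex, 0.982), *Rab2a* (a GTPase of the secretory pathway, 0.979), *Tbpl1* (a TBP-like factor, 0.979) and *Idua* (a lysosomal enzyme, 0.977) with TPM. After scaling they were *Anapc10* (a subunit of the anaphase-promoting complex, 0.986), *Lbhd1* (0.971), *Naca* (0.967), *Khdrbs1* (0.966) and *Rab2a* (0.959). The median residual SD of the 9 genes within genotypes was 0.113 on the log2 scale, against 0.0953 over the 226 genes with a mean of at least 500 TPM.

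Ratios within a library do not depend on its scaling, and 15 were compared over the 3 genotypes by an exact permutation test with Benjamini-Hochberg adjustment over the 15. None of the 15 passed 0.05 after adjustment. The smallest p the design allows is 0.00357, and a ratio that reached it alone would still not pass after adjustment over the 15. The lack of a pass therefore says little about any single ratio. With 3 libraries against 3, a lack of overlap in either direction has a probability of 0.1 if genotype does not matter. Several of the 15 ratios also share a gene, so those without overlap are not separate observations. Between subunits, the ratio of *Pde6b* to *Pde6a* was the steadiest, with 0.914 to 1.02 over the 9 libraries and group means of 0.962 in +/+, 0.941 in Cre/+ and 0.994 in Cre/Cre (exact permutation p = 0.236). The ratio of the inhibitory *Pde6g* to *Pde6a* was 1.79, 2.11 and 2.11 in +/+, 1.69, 1.68 and 1.61 in Cre/+, and 1.94, 1.94 and 1.60 in Cre/Cre. All Cre/+ values were below all +/+ values, with an exact permutation p of 0.146 over the genotypes. The group means of *Gnb1* to *Gnat1* were 0.357, 0.391 and 0.363 in the order +/+, Cre/+ and Cre/Cre, with Cre/+ above +/+ without overlap (exact permutation p = 0.168), those of *Gngt1* to *Gnat1* 0.219, 0.249 and 0.211 (exact permutation p = 0.150), those of *Cngb1* to *Cnga1* 0.903, 0.771 and 0.860 (exact permutation p = 0.343), and those of *Sag* to *Gnat1* 0.410, 0.454 and 0.417 (exact permutation p = 0.439).

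Each gene of the cascade was also set against its cone counterpart, the gene that does the same step in cones. Whole-retina libraries do not show which cells either RNA came from. *Gnb1* serves many cell types, so its ratio to *Gnb3* is not one of rods to cones alone. *Gnat1* exceeded the cone *Gnat2* 42.6-fold to 55.1-fold over the 9 libraries, and the groups overlapped (exact permutation p = 0.879). Rod to cone ratios were lowest for the beta subunits (*Gnb1* to *Gnb3*, 7.86 to 9.70), the inhibitory PDE6 subunits (*Pde6g* to *Pde6h*, 7.96 to 9.36) and the arrestins (*Sag* to *Arr3*, 6.41 to 10.2), and highest for the pore subunits (*Cnga1* to *Cnga3*, 62.7 to 94.97). Between them lay *Gngt1* to *Gngt2* (12.1 to 16.7), *Pde6a* to *Pde6c* (15.0 to 20.5), *Pde6b* to *Pde6c* (14.9 to 19.1) and *Cngb1* to *Cngb3* (36.0 to 60.1). The coverage of *Gngt2* relative to its FPKM was 0.328 to 0.329 of the common value, which limits its ratio. The transcripts of *Gngt2* were not examined.

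Of the rod to cone ratios, Cre/Cre was lower than +/+ without overlap for *Sag* to *Arr3* and for *Pde6a* to *Pde6c*. *Sag* to *Arr3* was 9.26, 8.77 and 7.93 in +/+, 8.03, 10.2 and 9.001 in Cre/+, and 6.41, 6.46 and 7.36 in Cre/Cre, with no overlap of Cre/Cre with either (exact permutation p = 0.0250, adjusted p = 0.161 over the 15 ratios). The cone arrestin *Arr3* was higher in Cre/Cre without overlap on the TPM scale, with 641, 660.0 and 645 TPM in +/+ and 736, 818 and 839 TPM in Cre/Cre. Its log2 fold change was 0.30 ± 0.0796 with an adjusted p of 0.542 in limma. *Arr3* lies on chromosome X, and by *Xist* the sexes were not balanced over the genotypes. The part of sex in this difference was not tested. *Pde6a* to *Pde6c* had group means of 17.8 in +/+, 18.4 in Cre/+ and 16.3 in Cre/Cre, and Cre/+ overlapped both (exact permutation p = 0.218, adjusted p = 0.393). The ratio of *Cngb1* to *Cngb3* was 45.8, 47.6 and 60.1 in +/+, 36.6, 38.0 and 36.0 in Cre/+, and 46.8, 38.0 and 45.1 in Cre/Cre, lower in Cre/+ than in +/+ without overlap (exact permutation p = 0.0107, adjusted p = 0.161). The cone *Cngb3* was at 16.1 ± 1.65 TPM (SD, n = 3) in +/+ and 22.0 ± 1.33 TPM in Cre/+. *Gnb1* to *Gnb3* was 8.17 ± 0.286 in +/+, 9.21 ± 0.144 in Cre/+ and 9.28 ± 0.503 in Cre/Cre. Both knock-in genotypes were above +/+ without overlap (exact permutation p = 0.0321, adjusted p = 0.161). In Cre/Cre the mean of *Gnb3* was 84.4% and that of *Gnb1* 96.1% of the +/+ mean. In Cre/+ they were 94.6% and 106.7%. *Gngt1* to *Gngt2* had group means of 13.2, 15.9 and 14.0, with Cre/+ above +/+ without overlap (exact permutation p = 0.05, adjusted p = 0.188).

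**Figure D4:**
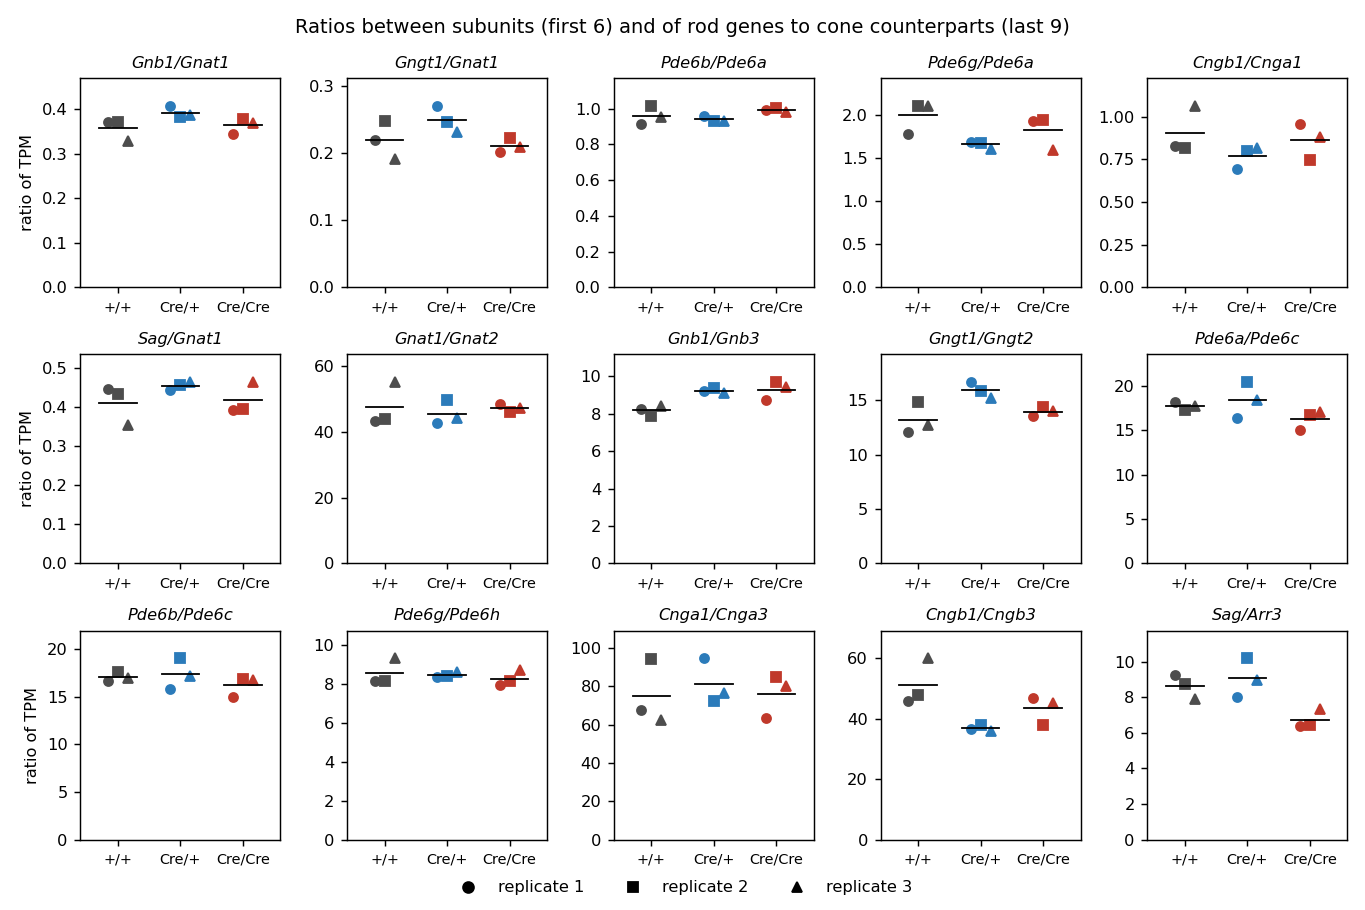
Ratios of TPM within each library (vertical axis, linear from 0) by genotype (horizontal axis), for 6 ratios between rod subunits and 9 ratios of a rod gene to its cone counterpart, with the replicate number as symbol and a line at the mean of 3 libraries. The Cre/Cre libraries lie lowest for *Sag* to *Arr3*, and the Cre/+ libraries lie below all +/+ libraries for *Pde6g* to *Pde6a* and *Cngb1* to *Cngb3*.

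Of 17 genes for recovery, calcium feedback, chaperoning and transport of the cascade, 0 passed the adjusted p in any comparison in limma. In Cre/+ against +/+ their median log2 fold change was 0.06, with 12 of 17 above 0 (50.4% of all genes). The range was from -0.13 for *Calm3* (a calmodulin gene) to 0.29 for *Gucy2f* (a guanylate cyclase that restores cyclic GMP, on chromosome X). Under an unadjusted p of 0.05 were 2 of the 17, against 10.7% of all genes. In Cre/Cre against +/+ the median was -0.06, with 2 of 17 above 0 (42.3% of all genes). The range was from -0.16 for *Calm3* to 0.06 for *Rgs9* (which speeds GTP hydrolysis by transducin). Again 2 of the 17 were under an unadjusted p of 0.05, against 6.97% of all genes. The median was -0.11 in Cre/Cre against Cre/+, with 1 of 17 above 0 (40.8% of all genes). The range was from -0.23 for *Gucy2f* to 0.05 for *Unc119* (which carries the transducin alpha subunit). Here 1 of the 17 was under that p, against 6.58% of all genes.

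Of 10 genes of rod identity and outer segment structure, 0 passed the adjusted p in any comparison in limma. Their log2 fold changes ranged from -0.43 ± 0.281 (SE) for *Esrrb* (a nuclear receptor of rods) to 0.31 ± 0.0913 for *Rp1* (an axoneme protein) in Cre/+ against +/+. Between the same genes they ranged from -0.41 ± 0.281 to 0.14 ± 0.0913 in Cre/Cre against +/+. *Esrrb* was at 335, 211 and 199 TPM in Cre/+. The coverage divided by FPKM was 0.0795 of the common value for *Esrrb* and 0.530 to 0.531 for *Rp1*, which limits their TPM. Both are also among the rod markers summed above. In Cre/Cre against Cre/+ they ran from -0.18 for *Rdh12* (a retinol dehydrogenase) to 0.09 for *Samd7* (a regulator of rod genes). The numbers under an unadjusted p of 0.05 were 2, 0 and 0 in these comparisons, against 10.7%, 6.97% and 6.58% of all genes. Of the 8 cone counterparts 0 passed the adjusted p. In Cre/+ against +/+ their log2 fold changes ran from -0.13 (*Gngt2*) to 0.43 (*Cngb3*). There 1 of 8 (*Cngb3*) was under an unadjusted p of 0.05, against 10.7% of all genes. In Cre/Cre against +/+ they ran from -0.24 (*Gnb3*) to 0.30 (*Arr3*). Under that p were 1 higher (*Arr3*) and 2 lower (*Gnb3* and *Gngt2*), against 6.97% of all genes. In Cre/Cre against Cre/+ they ran from -0.28 (*Cngb3*) to 0.25 (*Arr3*). Under that p were 1 higher (*Arr3*) and 2 lower (*Gnb3* and *Cngb3*), against 6.58% of all genes.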

How the data were processed

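Strand-specific poly(A) libraries of whole retinas were sequenced as paired reads. The submitters' processing notes and the methods name FastQC, Trimmomatic, HISAT2 with mm10, SAMtools, StringTie and DESeq2, without versions or an annotation. The authors deposited 1 StringTie gene table per library, with TPM, which have the same sum in every library, FPKM and coverage. The deposited FPKM are fragments per length and depth, and the deposited coverage is the mean read depth over a gene's bases. Read counts are not among these columns, so the authors' DESeq2 comparison was not repeated and counting error per gene is unknown. The spread between 3 libraries set the precision. The sources describe each library as a pair of retinas without stating that each came from a different mouse, so p-values measure only the spread between these libraries.

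TPM were summed by gene name. Genes with a mean of at least 1 TPM (15198 of 25239) were tested as log2(TPM + 1) with limma 3.58.1 in R 4.3.3 (trended, robust prior) in 1 model of 9 libraries with genotype as its term and 6 residual degrees of freedom, with Benjamini-Hochberg adjustment over all genes. Limits were an adjusted p of 0.05 and a 2-fold change. Ratios were tested two-sided by exact permutation of genotypes. Scripts were tested on simulated data. Median-ratio scaling divided each library's TPM by 1 factor, the median over genes of the ratio to the gene's geometric mean. Aligned bases came from coverage divided by FPKM, which took a common value in 61.7% to 62.3% of rows.

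The 9 genes, the other lists, the markers and the motifs were chosen with earlier results of these data known. Named by rule were the 9 genes, *Rbpms*, the 5 genes most like them on each scale, and of the other lists the genes at either end or on which a result turns. Alternatives were a pseudocount of 0.1, no filter, FPKM, median-ratio scaling, Rn45s left out, no robust prior, *Xist* as covariate, only the genotypes compared, replicate number as block, and each library left out. No other annotated gene overlapped any of the 9. Transcript lengths came from GENCODE vM21. Figures were drawn with matplotlib 3.10.9.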

Additional observations from a re-analysis of the deposited data

How the results depend on the processing

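None of the 9 genes passed an adjusted p of 0.05 in limma in any comparison under any of the 9 other settings or with any of the 9 libraries left out. Of 486 log2 fold changes from these fits, 466 kept their direction and 20 turned it, and the smallest adjusted p was 0.168. In Cre/Cre against +/+, the direction turned with *Xist* as covariate for *Gnb1* (0.0172), *Pde6b* (0.0333) and *Cnga1* (0.0885), with median-ratio scaling for *Pde6b* (0.0270) and *Cnga1* (0.0219), and with Rn45s left out for *Pde6b* (0.0432) and *Cnga1* (0.0381); the cause was not tested. Leaving out 1 library gave ranges across 0 in Cre/+ against +/+ for *Cngb1* (-0.0433 to 0.0418), in Cre/Cre against +/+ for *Gnb1* (-0.118 to 0.0291), *Pde6a* (-0.135 to 0.0486), *Pde6b* (-0.0776 to 0.0966), *Cnga1* (-0.0895 to 0.131) and *Sag* (-0.165 to 0.0293), each highest without Cre/Cre replicate 1, and in Cre/Cre against Cre/+ for *Gnat1* (-0.0761 to 0.00457).

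The median of the 9 log2 fold changes ranged with 1 library left out from 0.07 to 0.13 in Cre/+ against +/+, from -0.13 to 0.03 in Cre/Cre against +/+ and from -0.19 to -0.06 in Cre/Cre against Cre/+. The log2 difference of ratios between Cre/Cre and +/+ crossed 0 with 1 library left out for *Gnb1* to *Gnat1* (-0.0332 to 0.0673), *Gngt1* to *Gnat1* (-0.145 to 0.0424), *Cngb1* to *Cnga1* (-0.147 to 0.0565), *Sag* to *Gnat1* (-0.0774 to 0.0887), *Gnat1* to *Gnat2* (-0.0623 to 0.116), *Pde6g* to *Pde6h* (-0.0855 to 0.0179) and *Cnga1* to *Cnga3* (-0.0787 to 0.217).

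Over all 15198 genes, 1, 1 and 2 passed the adjusted p in limma in the 3 comparisons, in the order Cre/+ against +/+, Cre/Cre against +/+ and Cre/Cre against Cre/+. FPKM gave 0, 7 and 6. Only the genotypes compared gave 2 in the first and 5 in the second, *Xist* as covariate 3 in the second and 6 in the third, and a pseudocount of 0.1 gave 3 in the second. No filter, median-ratio scaling and no robust prior each gave 1 in the third. With 1 library left out the counts were 1 to 5, 1 to 4 and 1 to 8. Median-ratio scaling moved the genes under an unadjusted p of 0.05 from 744 higher and 884 lower to 1225 and 1187 in Cre/+ against +/+, from 240 and 819 to 556 and 717 in Cre/Cre against +/+, and from 362 and 638 to 659 and 625 in Cre/Cre against Cre/+.

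The deviations of same-numbered libraries had r of -0.12 to 0.13 over 9 pairs, with 1 of 9 above 0.1. Pairs with different numbers had r of -0.19 to 0.26. Whether libraries with the same number shared handling cannot be told from these values. With replicate number as a block, 0 of the 9 genes passed in any comparison, the count over all genes fell from 2 to 1 in Cre/Cre against Cre/+, and the smallest adjusted p of the ratios was 0.417. The smallest p that the permutation within blocks allows is 0.0278, so a ratio that reached it alone could not pass after adjustment.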

Other observations

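*Pdc*, which encodes phosducin, a protein that binds the beta and gamma subunits of transducin in rods, was chosen after its values were seen. Its TPM were 4462, 4849 and 4385 in +/+, 6202, 4278 and 4078 in Cre/+, and 3141, 6215 and 4386 in Cre/Cre. The libraries of Cre/+ and Cre/Cre spread widely around the +/+ level, with an SD of 24.2% and 33.8% of the mean against 5.45% in +/+. Its residual SD was 0.345 on the log2 scale, which only 8 of the 226 genes with a mean of at least 500 TPM exceeded, while the 9 rod cascade genes lay between 0.0664 and 0.163.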
